A study of Mus musculus with 9 samples.

Results

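The mRNAs of 8 hormone receptors were followed across the first 48 h of spermatogonial differentiation in culture. The receptors were chosen by name, as those for hormones relevant to the differentiation medium and receptors related to them, and make up 8 of the 46078 genes counted. They are the gonadotropin receptors Fshr and Lhcgr, the prolactin receptor Prlr, the estrogen receptors Esr1 and Esr2, the glucocorticoid receptor Nr3c1 and the thyroid hormone receptors Thra and Thrb. The RNA came from EGFP-SSCs, a single wild-type (WT) mouse line of spermatogonial stem cells (SSCs) that carries green fluorescent protein, in 3 biological replicates per time point (0 h, 24 h or 48 h of differentiation). The 0 h cells were in normal culture on mitomycin C-exposed mouse embryonic fibroblasts, in StemPro-34 medium with insulin, transferrin, β-estradiol, progesterone, epidermal growth factor, basic fibroblast growth factor, GDNF and a little serum. The 24 h and 48 h cells were mixed with an equal number of somatic cells from testes of busulfan-exposed mice aged 3 to 7 days, in α-MEM with KSR, BMP-4, BMP-7, retinoic acid, activin A, testosterone, FSH and BPE, and EGFP-positive cells were then sorted by flow cytometry. Medium, feeder cells and somatic partners therefore change together between 0 h and the later groups, and cannot be told apart. The paper describes sorting of SSCs from different culture stages for RNA-seq. Its figure legend names the differentiated cells, so whether the 0 h cells were sorted is not spelled out.

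The gonadotropin receptors are membrane receptors that raise cyclic AMP through a stimulatory G protein. In the testis, FSH receptor is known from Sertoli cells and LH receptor from Leydig cells. Prolactin receptor is a cytokine receptor that signals through the kinase JAK2 and STAT5. The estrogen, glucocorticoid and thyroid hormone receptors are nuclear receptors, which bind DNA and regulate transcription with their ligand. Steroid receptors are held ready by chaperones, whereas thyroid hormone receptors bind DNA as partners of retinoid X receptors.

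The libraries held 16825251 to 22201892 counts, so a gene at 0 counts may still reach 3 counts, equal to 0.130 to 0.187 CPM, and this limit covers counting error only. CPM are counts scaled to a common library total after TMM, a normalization that evens out library composition. Genes of the stem and differentiating states changed along with the time labels. Stra8, a retinoic acid-induced gene of meiotic entry, was at 2.58, 912.1 and 484.8 CPM on average at 0 h, 24 h and 48 h. Kit, the receptor of differentiating spermatogonia, was at 8.47, 567.0 and 329.5 CPM, whereas Gfra1, the GDNF co-receptor of stem spermatogonia, was at 230.0, 36.4 and 18.0 CPM. The stem cell factor Zbtb16 was at 302.0, 267.8 and 203.4 CPM. Summed over 8 germ cell markers, among them Ddx4 and Dazl, the level was 1581 to 2775 CPM at 0 h, 1835 to 2142 CPM at 24 h and 1962 to 2308 CPM at 48 h.

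Per unit of length, the glucocorticoid receptor and Thra stood far above the other 6 receptors. Levels between genes were compared as FPKM, computed from the deposited counts and the union of each gene's exons. At 0 h, 24 h and 48 h, Nr3c1 had means of 4.35 ± 1.56, 6.39 ± 0.244 and 6.18 ± 0.546 FPKM (SD, 3 libraries each). Thra followed with 2.38 ± 0.591, 3.11 ± 0.225 and 3.30 ± 0.0468 FPKM. The libraries of the pair overlapped in FPKM at 0 h, where Nr3c1 ran from 2.59 to 5.58 and Thra from 1.70 to 2.73, and they did not overlap at 24 h or 48 h. The other 6 receptors stayed at or below 0.370 FPKM in every library. In descending order of their mean over the 9 libraries, these were Esr2 at 0.177, Esr1 at 0.0779, Thrb at 0.0443, Prlr at 0.0152, Fshr at 0.0139 and Lhcgr at 0.00208 FPKM. At 48 h the means of the first pair were close, with Esr1 at 0.106 ± 0.0288 and Esr2 at 0.101 ± 0.0165 FPKM (SD, 3 libraries each). Esr2 was the higher of the pair in replicates 2 and 3 of 48 h. With the longest transcript as gene length, the mean of Esr1 lay above that of Esr2 at 24 h (0.180 and 0.134) and 48 h (0.228 and 0.101). Among neighbours in this order, Esr2 and Esr1 overlapped at 24 h and 48 h but not at 0 h, Esr1 and Thrb overlapped at every time, Thrb and Prlr at 0 h and 24 h, Prlr and Fshr at every time, and Fshr and Lhcgr at 0 h and 48 h.

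**Figure D1:**
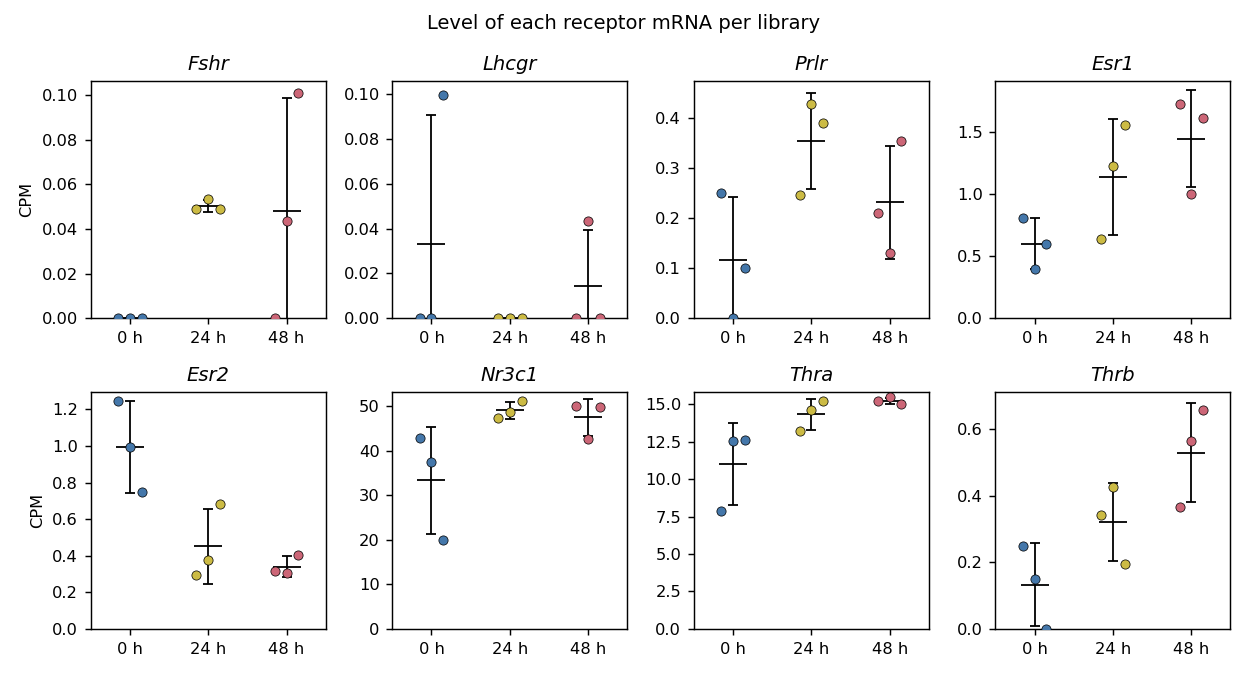
CPM of the 8 receptors in each library (y axis, a separate linear scale for each gene) at 0 h, 24 h and 48 h (x axis). Points are libraries, horizontal lines are means and bars are SD (n = 3), cut at 0. Esr2 is highest in the 3 libraries of 0 h, Esr1 and Thrb are higher in the 3 libraries of 48 h than in those of 0 h, and Fshr and Lhcgr stay at or below 2 counts in each library.

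Differences between time points were tested with the quasi-likelihood test of edgeR on the 6 libraries of each comparison, with p-values adjusted after Benjamini and Hochberg over all genes that passed the expression filter. Each group of libraries enters 2 of the 3 comparisons, so these are not independent of each other. Of the 17592 genes tested at 24 h against 0 h, 25.5% passed an adjusted p of 0.05, 11.4% higher and 14.2% lower. Of 17755 genes at 48 h against 0 h, 31.6% passed, 13.0% higher and 18.5% lower. Of 17499 genes at 48 h against 24 h, 21.3% passed, 8.61% higher and 12.7% lower. Esr1, Esr2, Nr3c1 and Thra passed the filter at 24 h and 48 h against 0 h, Esr1, Nr3c1 and Thra passed it at 48 h against 24 h, and Fshr, Lhcgr, Prlr and Thrb were too low for it in each comparison. Of the receptors tested, 0 of 4 passed the test at 24 h against 0 h, where 1 had an unadjusted p under 0.05 and DESeq2 called 0. The receptors that passed at 48 h against 0 h were 2 of 4, Esr1 higher and Esr2 lower. Between 24 h and 48 h, 0 of 3 passed with edgeR, 0 had an unadjusted p under 0.05 and DESeq2 called 0. In CPM, the libraries of the groups did not overlap for 3 of the 4 tested receptors at 24 h against 0 h (43.4% of all genes tested), for 3 of 4 at 48 h against 0 h (48.3%) and for 0 of 3 at 48 h against 24 h (39.6%).

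**Figure D2:**
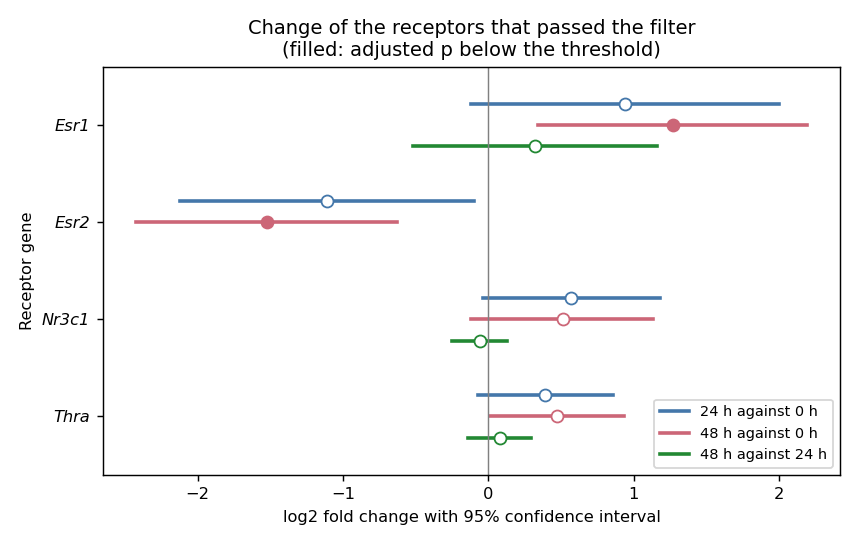
Log2 fold change (x axis) of the receptors that passed the expression filter (y axis) in the 3 comparisons, with 95% confidence intervals from edgeR fits on 6 libraries each. Filled points passed an adjusted p of 0.05: Esr1 at 1.27 and Esr2 at -1.52, both at 48 h against 0 h.

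Fshr, the receptor of a hormone that the differentiation medium contains, had almost no reads. The gene lies at chr17:88984952-89200675 on the minus strand (GRCm38), and its 10 exon blocks span 2360 bases. It had 0 counts in the 3 libraries of 0 h, 1 count in each library of 24 h, and 0, 1 and 2 counts at 48 h. Every library was at or below 3 counts, so no fold change is given. Lhcgr, its neighbour on chromosome 17 (chr17:88716481-88791990, minus strand), had 0, 0 and 2 counts at 0 h, 0 counts in the 3 libraries of 24 h, and 0, 1 and 0 counts at 48 h. A difference in either gonadotropin receptor was not detectable at this depth.

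Reads of Sertoli and Leydig genes were present in the same libraries. The 13 Sertoli markers summed to 49.3 to 57.2 CPM at 0 h, 92.6 to 151.5 CPM at 24 h and 132.1 to 147.9 CPM at 48 h. Of the 11 tested at 24 h, 9 were higher and 2 lower than at 0 h, and of the 12 tested at 48 h, 10 were higher and 1 lower. Rhox8, Defb19 and Cst12 were at 0 counts in the 0 h group, and none of the 13 was at 0 in the later groups. Amh, the hormone of immature Sertoli cells, was at 0.133 CPM on average at 0 h, 5.79 CPM at 24 h and 0.828 CPM at 48 h. Sox9, a transcription factor of Sertoli cells, was at 11.7, 6.63 and 7.89 CPM. The 7 Leydig markers summed to 4.48 to 6.99 CPM at 0 h, 28.7 to 44.8 CPM at 24 h and 29.1 to 37.2 CPM at 48 h. Of the 4 tested, 3 were higher at 24 h and 4 at 48 h than at 0 h. Hsd3b1, Hsd3b6 and Insl3 were at 0 counts at 0 h, and Hsd3b6 was at 0 at 48 h. Cyp11a1, the enzyme that starts steroid synthesis, was at 0.493, 20.8 and 14.6 CPM. The part of these cell types in the receptor counts was not tested. In bulk libraries, fewer cells of a type and less RNA per cell cannot be told apart.

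Genes of the cyclic AMP and protein kinase A arm downstream of gonadotropin receptors changed in both directions, and passed at 50.0%, 54.2% and 33.3% in the 3 comparisons, beside 25.5%, 31.6% and 21.3% of all genes tested. Of 24 genes tested, 5 rose and 7 fell by 24 h, and 4 rose and 9 fell by 48 h, relative to 0 h. Gnas, the stimulatory G protein subunit, was at 78.1 CPM at 0 h, 22.5 CPM at 24 h and 28.2 CPM at 48 h. Its log2 fold change was -1.78 ± 0.22 (SE) at 24 h, with an adjusted p of 0.00107 from edgeR, and the 3 libraries of each later group lay below those of 0 h. Adcy2, an adenylate cyclase, rose by 1.57 ± 0.32 at 24 h and 2.09 ± 0.30 at 48 h on the log2 scale. Adcy4, another adenylate cyclase, was lower by -1.55 ± 0.38 and -2.15 ± 0.26. Prkar1a, the regulatory subunit with the highest CPM of the list, was lower at 24 h, at 259.3 against 469.6 CPM. Between 24 h and 48 h, 2 genes rose and 6 fell, with the transcription factor Creb1 rising by 0.47 and the phosphodiesterase Pde4c at -0.69. The median log2 fold change of the list was -0.15 at 24 h, -0.30 at 48 h and -0.09 from 24 h to 48 h. Over all genes tested it was 0.01, 0.02 and 0.00. Fshr and Lhcgr stayed at or below 2 counts in each library, and a link of these genes to either receptor was not tested.

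Prlr had a few reads in 8 of the 9 libraries. The gene lies at chr15:10177238-10349180 on the plus strand. It had 4, 0 and 2 counts at 0 h, 5, 8 and 8 counts at 24 h, and 4, 3 and 7 counts at 48 h. In CPM these were 0.249, 0 and 0.0996 at 0 h, 0.245, 0.427 and 0.390 at 24 h, and 0.209, 0.130 and 0.354 at 48 h. The 24 h libraries were highest on average, and the groups overlapped in each comparison. Exact permutation tests of CPM gave a two-sided p of 0.2 at 24 h and 0.4 at 48 h against 0 h (n = 3 per group), where 3 against 3 libraries cannot go below 0.1. Of its exonic bases, 203 (1.32%) are shared with the gene Gm21973 on the same strand, which had 0 counts in the 9 libraries.

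Genes of the JAK2 and STAT5 arm passed the test at 44.4%, 33.3% and 44.4% in the 3 comparisons, beside 25.5%, 31.6% and 21.3% of all genes. Of the 9 tested, 4 were higher at 24 h than at 0 h, among them Socs1 and Cish, which inhibit cytokine signalling, and Stat5b, which acts downstream of JAK2. Socs1 rose by 0.98 ± 0.24 on the log2 scale, from 20.5 to 40.0 CPM, and Cish by 0.90 ± 0.26, from 8.64 to 16.1 CPM. Relative to 0 h, Cish was also higher at 48 h, at 16.7 CPM, and Socs3 and Stat3 were lower. The 4 genes that passed between 24 h and 48 h were lower, among them Socs1, Socs3 and Stat3, and with DESeq2 Socs1 did not pass, at an adjusted p of 0.066. Socs3, a feedback inhibitor of STAT3, was at 98.9, 122.6 and 48.3 CPM at the 3 time points, and Stat3, the most abundant of the list in CPM, was lower at 48 h than at 24 h, at 165.5 against 265.3 CPM. These genes also serve other cytokine receptors. The list medians were 0.47, 0.32 and -0.15 in the 3 comparisons.

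The estrogen receptors moved in opposite directions. Esr1 (chr10:4611593-5005614, plus strand) encodes estrogen receptor alpha and Esr2 (chr12:76120419-76177259, minus strand) encodes estrogen receptor beta. The 250 bases before the RefSeq transcription start are shown for these genes because they are the members that passed the test. They are given 5′ to 3′ on the gene's strand, from RefSeq on GRCm38.p6. Capitals mark a CCAAT box or its reverse complement.
Esr1 (chr10:4709908-4710157): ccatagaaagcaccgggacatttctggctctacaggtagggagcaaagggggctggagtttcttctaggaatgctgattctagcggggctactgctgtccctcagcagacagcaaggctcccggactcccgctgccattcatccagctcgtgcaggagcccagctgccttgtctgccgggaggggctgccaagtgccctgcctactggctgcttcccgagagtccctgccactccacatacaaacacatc
Esr2 (chr12:76177260-76177509): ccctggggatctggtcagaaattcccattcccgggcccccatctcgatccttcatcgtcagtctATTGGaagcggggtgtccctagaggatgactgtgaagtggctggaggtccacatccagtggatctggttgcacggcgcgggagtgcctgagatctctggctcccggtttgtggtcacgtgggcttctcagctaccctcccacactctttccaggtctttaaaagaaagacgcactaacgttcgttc
The other Esr1 entry of the RefSeq table lies wholly within annotated exons and is not shown, and it holds 1 CCAAT box. Which start the reads came from was not tested.

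The windows were searched on both strands for the SP1 box GGGCGG, the TATA box TATAAA, the CCAAT box CCAAT, the cyclic AMP response element TGACGTCA, the estrogen response element (GGTCA and TGACC with 3 bases between) and the glucocorticoid response element (AGAACA and TGTTC with 3 bases between). None of these motifs contains another. The Esr2 window held 1 CCAAT box, 12 CpG and 56.4% GC. The Esr1 window held 7 CpG, 59.6% GC and 0 of the 6 motifs. Among all 32851 RefSeq promoters, 33.8% held CCAAT, 32.7% the SP1 box, 12.4% the TATA box, 1.55% the cyclic AMP response element, 0.0639% the estrogen response element and 0.0304% the glucocorticoid response element. The median promoter had 52.4% GC and 6 CpG. Of the members, 6 had an entry, and Nr3c1 and Thra had none. Among the others, the Lhcgr window held 4 SP1 boxes at 63.2% GC, and the Fshr window held 0 of the motifs at 36.8% GC.

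Esr1 had 13, 8 and 12 counts at 0 h, 13, 23 and 32 counts at 24 h, and 33, 23 and 32 counts at 48 h. The CPM values were 0.810, 0.397 and 0.597 at 0 h, 0.638, 1.23 and 1.56 at 24 h, and 1.73, 0.999 and 1.62 at 48 h. The 48 h libraries lay above those of 0 h, whereas replicate 1 of 24 h lay within the 0 h range. Against 0 h, Esr1 at 48 h was higher by 1.27 ± 0.39 (SE) on the log2 scale, with an adjusted p of 0.0458 from edgeR and a 95% interval of 0.34 to 2.19. At 24 h the difference from 0 h was 0.94 ± 0.45, with an adjusted p of 0.179. From 24 h to 48 h it was 0.32 ± 0.38, with an adjusted p of 0.576, and it ran from 0.03 without replicate 1 of 24 h to 0.64 without replicate 3 of 24 h. The call at 48 h lay close to the threshold. Its adjusted p was 0.0545 with DESeq2 and 0.0558 with offsets for GC content and length, and the call was kept in 1 of the 6 fits that left out a library, the one without replicate 1 of 0 h, with adjusted p from 0.0319 to 0.156.

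Esr2 had 20, 20 and 15 counts at 0 h, 6, 7 and 14 counts at 24 h, and 6, 7 and 8 counts at 48 h. As CPM, the values were 1.25, 0.992 and 0.747 at 0 h, 0.294, 0.374 and 0.683 at 24 h, and 0.314, 0.304 and 0.405 at 48 h. Every library of the later groups lay below every library of 0 h. Against 0 h, Esr2 at 48 h was lower by a log2 fold change of -1.52 ± 0.38 (SE), with an adjusted p of 0.0206 from edgeR and a 95% interval of -2.42 to -0.63. At 24 h the log2 fold change was -1.11 ± 0.43, with an adjusted p of 0.105. The gene was too low for the filter at 48 h against 24 h, where the groups overlapped. DESeq2 gave an adjusted p of 0.0416 at 48 h against 0 h. The call was kept in 1 of the 6 fits without a library, the one without replicate 3 of 0 h, with adjusted p from 0.0204 to 0.0857.

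The share of Esr1 in the pair was lower in the 0 h libraries than in the later ones. It is computed from the same low counts as the calls of Esr1 and Esr2, so it is not separate support for them. As a share of the summed FPKM of Esr1 and Esr2, Esr1 took 13.8%, 8.98% and 16.5% in the 0 h libraries, 34.8%, 44.8% and 36.0% at 24 h, and 57.6%, 44.8% and 49.6% at 48 h. The 3 libraries of each later group lay above the 3 of 0 h. The two-sided exact permutation test gave p = 0.1 for 24 h and for 48 h against 0 h (n = 3 per group), the smallest value that 3 against 3 allows, and p = 0.2 for 48 h against 24 h. With the longest transcript as gene length, which is 6339 rather than 13661 bases for Esr1, the mean shares at 0 h, 24 h and 48 h were 24.3% ± 6.25, 57.3% ± 5.47 and 68.7% ± 5.50 (SD, 3 libraries each). Whether Esr1 or Esr2 had the higher level at 24 h thus changed with the gene length used.

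**Figure D3:**
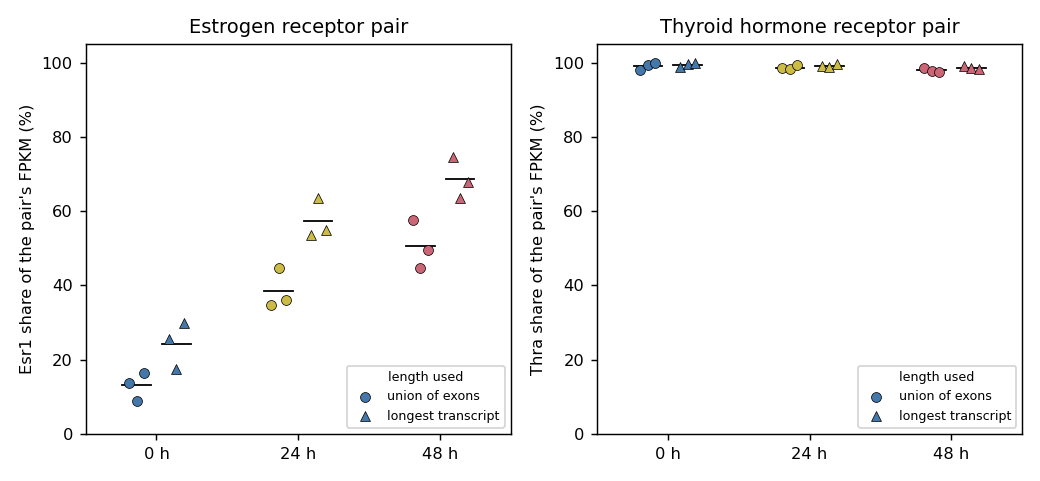
Share of the first gene in the summed FPKM of each receptor pair (y axis, percent) in the 9 libraries by time (x axis), for Esr1 of Esr1 plus Esr2 and Thra of Thra plus Thrb. Circles use the union of exons and triangles the longest transcript as gene length, and lines are means (n = 3). The Esr1 share is higher in the libraries of 24 h and 48 h than in those of 0 h with either length, and Thra takes over 97% in each library.

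Sums of stromal and myoid markers were higher at 48 h than at 0 h, as Esr1 was, whereas endothelial and macrophage sums were lower. The 7 stromal markers, among them Col1a1 and Pdgfra, summed to 266.5 to 370.7 CPM at 0 h, 2123 to 2477 CPM at 24 h and 2921 to 3239 CPM at 48 h, with 5 of 7 higher at each later time than at 0 h. From 24 h to 48 h, 6 of the 7 were higher and Pdgfra was lower. The 6 myoid markers summed to 13.7 to 15.6 CPM, 145.9 to 207.3 CPM and 262.8 to 321.0 CPM, with 5 of 6 higher in each of the 3 comparisons. None of the stromal or myoid markers was at 0 counts in any group. The 6 endothelial markers summed to 68.5 to 92.0 CPM at 0 h, 43.7 to 45.6 CPM at 24 h and 29.9 to 34.0 CPM at 48 h, with 1 of the 5 tested higher and 3 lower at 48 h than at 0 h, and Emcn was at 0 counts at 0 h. The 6 macrophage markers summed to 15.5 to 17.3 CPM at 0 h, 5.98 to 9.81 CPM at 24 h and 5.60 to 7.49 CPM at 48 h, and C1qa was at 0 at 0 h and 48 h. Of the 2 macrophage markers tested, Csf1r was higher and Cd68 lower at 24 h than at 0 h, and Cd68 was lower at 48 h. Cd68 made up most of the macrophage sum, at 15.7, 5.78 and 5.45 CPM on average. Csf1r was at 0.294, 1.08 and 0.652 CPM. The part of these cell types in the change of Esr1 was not tested. The 3 genes whose centred log2 CPM over the 9 libraries lay nearest to Esr1, among 15708 genes with a mean of at least 1 CPM, were Cd44, a hyaluronan receptor, at a root mean square distance of 0.20, Ifi202b at 0.24 and Vim, the intermediate filament vimentin, at 0.24.

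**Figure D4:**
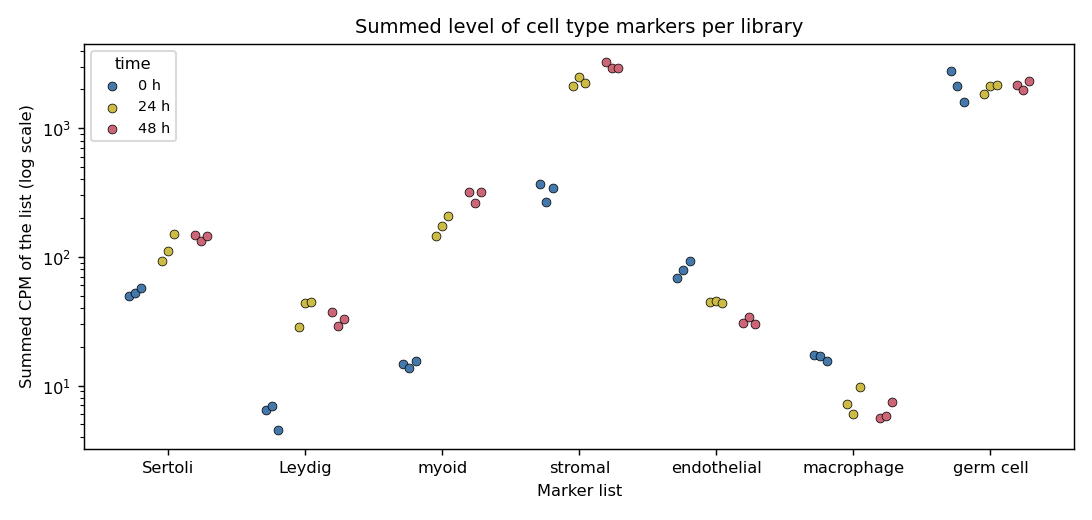
Summed CPM (y axis, log scale) of 7 lists of cell type markers (x axis) in the 9 libraries, coloured by time. The stromal, myoid, Leydig and Sertoli sums are higher in each library of 24 h and 48 h than in those of 0 h. The endothelial and macrophage sums are lower in each of these libraries, and the germ cell sums overlap. Cd68 makes up most of the macrophage sum.

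Few known targets of estrogen were measurable, and those that passed the test were lower. Of 9 listed genes, 5 were tested. At 24 h Xbp1, a factor of the unfolded protein response, was lower than at 0 h by -0.56 ± 0.11, at 49.9 against 74.2 CPM. At 48 h Xbp1 and Susd3 were lower, and Susd3 was also the gene that passed at 48 h against 24 h, at 3.48 against 5.21 CPM. With DESeq2, Susd3 did not pass, at adjusted p of 0.0545 against 0 h and 0.0762 against 24 h. The list passed at 20.0%, 40.0% and 20.0% in the 3 comparisons, beside 25.5%, 31.6% and 21.3% of all genes. Its medians were -0.08, -0.52 and -0.12. The 0 h medium contained β-estradiol and progesterone, which the description of the differentiation medium does not name. Whether this difference bears on the listed genes was not tested, and it changes together with feeder cells and somatic partners.

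A list of other receptors held hormone receptors, but also the orphan receptor Esrrg, its relatives Esrra and Esrrb, the clock gene Nr1d1 and its relative Nr1d2. Among its 16 tested genes, 3 rose and 2 fell by 24 h and 6 rose and 3 fell by 48 h, relative to 0 h. Between 24 h and 48 h, 3 rose and 3 fell. Their shares were 31.2%, 56.2% and 37.5%, beside 25.5%, 31.6% and 21.3% over all genes. The progesterone receptor Pgr had 0 to 7 counts per library and was not tested. Ghr, the growth hormone receptor, rose by 1.37 ± 0.26 at 24 h and 1.51 ± 0.25 at 48 h on the log2 scale, and Nr3c2, the mineralocorticoid receptor, by 1.17 ± 0.31 and 1.28 ± 0.29. Gper1, a membrane estrogen receptor, was higher at 48 h, at 1.17 against 0.348 CPM. The orphan receptor Esrrg was lower at 24 h by -1.61 ± 0.39, and its relative Esrrb was at 49.1, 24.4 and 17.0 CPM at 0 h, 24 h and 48 h, lower in each comparison. Vdr, the vitamin D receptor, was at 5.79, 7.04 and 3.35 CPM and was lower at 48 h than at either earlier time. Paqr8, a membrane progestin receptor, was higher at 48 h, at 12.6 CPM against 6.39 CPM at 0 h and 8.53 CPM at 24 h. Nr1d2, the most abundant of the list in CPM, was at 71.8, 101.6 and 135.1 CPM, with an adjusted p of 0.0733 at 48 h against 0 h and 0.00354 from 24 h to 48 h by edgeR.

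Of 10 tested enzymes that interconvert steroids, 2 fell by 24 h, and 1 rose and 2 fell by 48 h, relative to 0 h. Hsd17b12, which acts in fatty acid elongation and on estrone, had the highest CPM of the list and was at 202.9, 68.7 and 55.1 CPM at the 3 time points, with a log2 fold change of -1.88 ± 0.12 at 48 h. Hsd17b1, which makes estradiol from estrone, was higher at 48 h, at 1.03 against 0.332 CPM, by 1.60 ± 0.42. Between 24 h and 48 h, Hsd17b11 rose by 0.87 ± 0.25 and Hsd17b12 was lower. The aromatase gene Cyp19a1 had 1 to 7 counts per library and was not tested. The list passed at 20.0%, 30.0% and 20.0%, near the shares over all genes, and its medians were -0.25, -0.25 and -0.14.

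Nr3c1, the most highly expressed of the 8 receptors per length, was uneven among the 0 h libraries. The gene lies at chr18:39410545-39519421 on the minus strand. It had 688, 756 and 400 counts at 0 h, 967, 912 and 1048 counts at 24 h, and 955, 982 and 985 counts at 48 h. The CPM were 42.9, 37.5 and 19.9 at 0 h, 47.5, 48.7 and 51.2 at 24 h, and 50.0, 42.6 and 49.8 at 48 h. The 24 h libraries lay above those of 0 h, and replicate 2 of 48 h lay just below replicate 1 of 0 h. Against 0 h, the log2 differences were 0.57 ± 0.26 for 24 h and 0.51 ± 0.27 for 48 h, with adjusted p of 0.161 and 0.197 from edgeR. From 24 h to 48 h it was -0.06 ± 0.08, with a 95% interval of -0.25 to 0.13.

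The 0 h libraries also differed along the GC content of genes. In replicates 1, 2 and 3 of 0 h, genes of 40% to 45% GC deviated from their mean by a median of 0.27, 0.01 and -0.43 on the log2 scale. At 24 h the medians of this band were -0.11, 0.00 and 0.00, and at 48 h 0.11, 0.01 and 0.18. GC content was taken from the longest transcript of each gene, which holds 42.2% GC for Nr3c1. With offsets for GC content and length in the edgeR fit, Nr3c1 was higher at 24 h by 0.58, with an adjusted p of 0.00455. At 48 h it was higher than at 0 h by 0.34 (adjusted p of 0.0395) and lower than at 24 h by -0.24 (0.0314). With the replicate block added, these adjusted p were 0.0164, 0.0572 and 0.0682, in this order. In fits without offsets, leaving out replicate 1 of 0 h gave 0.79 at 24 h (adjusted p of 0.0452) and 0.73 at 48 h (adjusted p of 0.0531). Leaving out replicate 3 of 0 h gave 0.33 at 24 h (adjusted p of 0.0606) and 0.27 at 48 h (adjusted p of 0.127). The genes nearest to Nr3c1 over the 9 libraries were the scaffold gene Magi3 at a distance of 0.058 on the log2 scale, the mitochondrial dehydrogenase gene Acadsb at 0.074 and the DNA repair gene Brca1 at 0.080.

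Chaperones of steroid receptors were lower where they passed the test. Of 10 tested, 2 were lower at 24 h than at 0 h (20.0%, beside 25.5% of all genes), 5 at 48 h than at 0 h (50.0%, beside 31.6%) and 5 at 48 h than at 24 h (50.0%, beside 21.3%). Ptges3, the p23 co-chaperone of HSP90, was at 383.0, 246.8 and 254.7 CPM, with a log2 fold change of -0.62 ± 0.14 at 24 h. Dnajb1, a co-chaperone of HSP70, was at 123.8, 94.1 and 74.3 CPM, with -0.74 ± 0.15 at 48 h. Hsp90ab1, with the highest CPM of the list, was at 3288, 3181 and 2654 CPM and was lower at 48 h than at 24 h by -0.27 ± 0.07. The list medians were -0.28, -0.48 and -0.22.

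Genes known to be induced by glucocorticoids changed in both directions. Of 14 tested, 1 rose and 6 fell by 24 h and 3 rose and 7 fell by 48 h, relative to 0 h, and 5 rose and 2 fell between 24 h and 48 h. These are 50.0%, 71.4% and 50.0%, beside 25.5%, 31.6% and 21.3% of all genes. Tsc22d3, which encodes the leucine zipper protein GILZ and had the highest CPM of the list, was at 256.0, 391.8 and 410.4 CPM and rose by 0.63 ± 0.12 at 24 h. Pdk4, a kinase that inhibits pyruvate dehydrogenase, was at 0.932, 1.72 and 4.56 CPM and rose by 2.27 ± 0.25 at 48 h against 0 h and by 1.39 ± 0.22 from 24 h to 48 h. Mt1, a metallothionein, was lower at 24 h, at 77.9 against 377.0 CPM, with -2.26 ± 0.15. Ddit4, an inhibitor of mTORC1 induced by stress, was at 252.8, 75.3 and 24.8 CPM, with -3.35 ± 0.29 at 48 h. Fkbp5, an HSP90 co-chaperone, was at 152.7, 111.9 and 93.7 CPM, lower in each comparison. The list medians were -0.22, -0.44 and 0.00.

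Of the thyroid hormone receptors, Thra made up nearly the whole of the pair. Thra (chr11:98740638-98769006, plus strand) had 126, 253 and 253 counts at 0 h, 269, 273 and 312 counts at 24 h, and 291, 356 and 297 counts at 48 h. The values in CPM were 7.85, 12.6 and 12.6 at 0 h, 13.2, 14.6 and 15.2 at 24 h, and 15.2, 15.5 and 15.0 at 48 h. Replicate 1 of 0 h was the lowest of the 9 libraries, and each library of the later groups lay above each of 0 h. Against 0 h, Thra was higher by 0.39 ± 0.20 for 24 h and 0.47 ± 0.20 for 48 h on the log2 scale, with adjusted p of 0.202 and 0.115 from edgeR. The difference between 24 h and 48 h was 0.08 ± 0.10, with a 95% interval of -0.14 to 0.29. Without replicate 1 of 0 h, the differences from 0 h were 0.21 at 24 h and 0.28 at 48 h, with adjusted p of 0.289 and 0.129. The longest transcript of Thra holds 59.8% GC. With offsets for GC content and length, Thra was higher at 24 h by 0.43, with an adjusted p of 0.0428. At 48 h it was higher by 0.75, with an adjusted p of 0.00213. With the replicate block added, these adjusted p were 0.0522 and 0.00795.

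Reads of Thra and of Nr1d1 cannot be fully told apart. The exons of Thra share 263 bases, 5.70% of them, with exons of Nr1d1, a clock gene on the opposite strand. These bases are 8.55% of the exons of Nr1d1, whose mean over the 9 libraries was 64.25 CPM, against 13.52 CPM for Thra. The description of the library protocol marks no strand, and how many Thra counts came from Nr1d1 was not tested. Nr1d1 was at 59.3, 70.9 and 78.3 CPM at 0 h, 55.7, 53.8 and 45.2 CPM at 24 h, and 67.7, 79.2 and 68.1 CPM at 48 h. It was not called against 0 h, and it was higher at 48 h than at 24 h by 0.46 ± 0.10, with an adjusted p of 0.0112. The genes nearest to Thra over the 9 libraries were the histone gene H3f3a at a distance of 0.076 on the log2 scale, the glutathione synthetase gene Gss at 0.085 and the ribosome biogenesis gene Pes1 at 0.087.

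Thrb (chr14:17660261-18038090, plus strand) stayed near the floor. It had 4, 3 and 0 counts at 0 h, 7, 8 and 4 counts at 24 h, and 7, 13 and 13 counts at 48 h. Its CPM were 0.249, 0.149 and 0 at 0 h, 0.343, 0.427 and 0.195 at 24 h, and 0.366, 0.564 and 0.658 at 48 h. The 48 h libraries lay above those of 0 h, and the 24 h libraries overlapped with both. Without the expression filter, edgeR gave an adjusted p of 0.131 at 48 h against 0 h, and the exact permutation test of CPM gave p = 0.1 (two-sided, n = 3 per group), its smallest value. Thra took 98.1%, 99.3% and 100% of the summed FPKM of the pair at 0 h, 98.4%, 98.2% and 99.2% at 24 h, and 98.5%, 97.8% and 97.3% at 48 h.

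Of the genes around the thyroid hormone receptors, those known to respond to the hormone passed at 16.7%, 33.3% and 20.0% in the 3 comparisons, those that supply it at 40.0%, 40.0% and 0.00%, and the retinoid X receptors at 33.3% in each, beside 25.5%, 31.6% and 21.3% of all genes. Rxrg, a retinoid X receptor, was at 13.2 CPM at 0 h, 0.694 CPM at 24 h and 0.508 CPM at 48 h, at -4.23 ± 0.32 and -4.69 ± 0.24 on the log2 scale against 0 h. Rxra, the retinoid X receptor with the highest CPM, was at 204.2, 197.2 and 171.8 CPM and passed the test between 24 h and 48 h, with -0.21 ± 0.06, a call that ended with DESeq2 at an adjusted p of 0.0504. Of 5 tested genes that supply thyroid hormone to cells, 1 rose and 1 fell by 24 h and 2 rose by 48 h, relative to 0 h. Slc16a10, a thyroid hormone transporter with the highest CPM of the list, was at 10.7, 14.9 and 15.9 CPM and was higher at 48 h by 0.56 ± 0.17. Dio3, the deiodinase that inactivates thyroid hormone, was lower at 24 h by -1.60 ± 0.33, at 0.405 against 1.25 CPM. From 24 h to 48 h, 0 of the 5 passed with edgeR and 0 with DESeq2, and 2 had an unadjusted p under 0.05. Among 6 tested genes known to be induced by thyroid hormone, Nrgn, a calmodulin-binding protein of neurons, was lower at 24 h by -1.41 ± 0.30 and at 48 h by -1.68 ± 0.30. Hr, a corepressor known from hair follicles, was lower at 48 h, at 4.60 CPM against 9.12 CPM at 0 h and 7.82 CPM at 24 h. Klf9, the most abundant of these in CPM, was at 33.4, 27.1 and 27.0 CPM, with an adjusted p of 0.267 at 24 h and 0.225 at 48 h against 0 h from edgeR.

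Of 18 coregulators of nuclear receptors, 2 passed the test at 24 h against 0 h (11.1%, beside 25.5% of all genes). The 2 were Nrip1, a corepressor that binds liganded receptors, which rose by 1.48 ± 0.32, from 3.38 to 9.33 CPM, and Tbl1xr1, a subunit of the NCoR corepressor complex, at -0.81 ± 0.21. Between 0 h and 48 h, 2 rose and 3 fell (27.8%, beside 31.6% of all genes). Nrip1 rose by 1.64 ± 0.31, and Tbl1xr1 was lower, at 56.6 against 92.6 CPM, with -0.71 ± 0.22. Between 24 h and 48 h, 2 rose and 1 fell (16.7%, beside 21.3% of all genes). The acetyltransferase gene Ep300 rose by 0.36 ± 0.09, and the deacetylase gene Hdac3 was at -0.37 ± 0.07. The list medians were 0.13, 0.10 and 0.11.

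**Figure D5:**
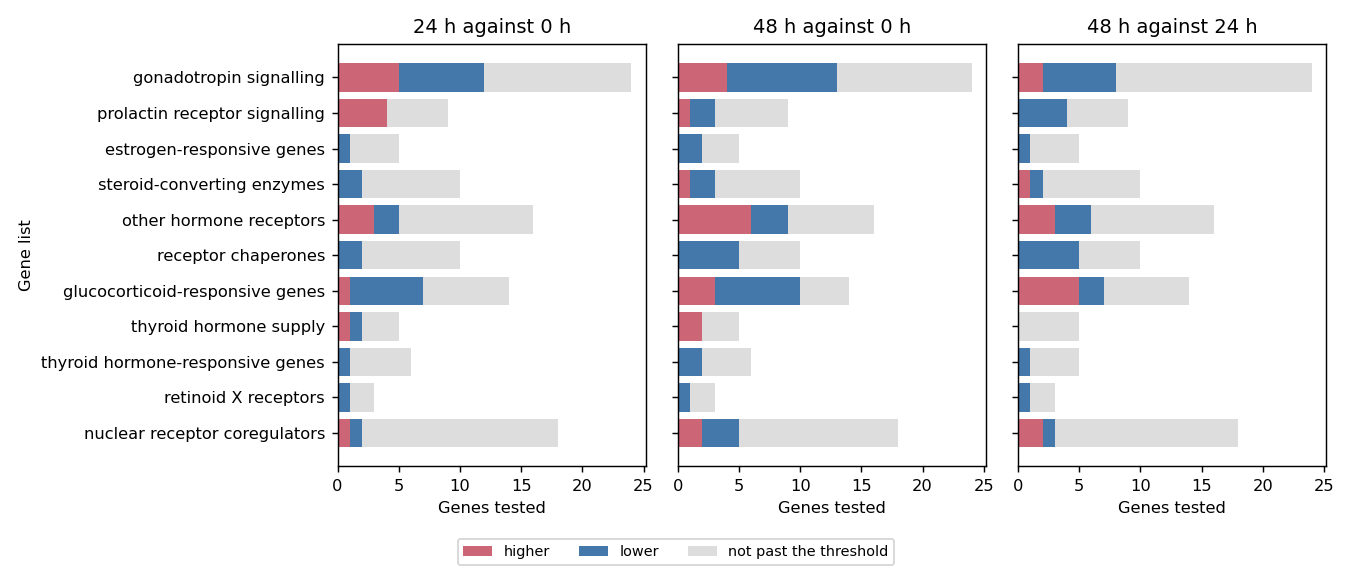
Number of genes tested (x axis) in 11 lists around the receptors (y axis) for the 3 comparisons, split into those that passed an adjusted p of 0.05 higher, those that passed lower and those that did not pass. Cyclic AMP genes of the list named gonadotropin signalling passed in both directions, with 5 higher and 7 lower at 24 h against 0 h. The chaperones that passed were lower.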

How the data were processed

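Poly-A RNA of 9 EGFP-SSC libraries was sequenced on a NovaSeq instrument. The authors deposited counts, whole reads per Ensembl gene without normalization. Per the labels' processing notes, reads went through fastp, HISAT2 on GRCm38 and featureCounts, and versions, strand setting and the handling of shared reads are not given in the sources used here. The authors tested them with DESeq2. Symbols, exons and lengths came from GENCODE M21 (GRCm38), and counts without a symbol took at most 0.121% of a library. Counts were analysed with edgeR 4.0.16 in R 4.3.3 (filterByExpr, TMM, two-sided quasi-likelihood test on the 6 libraries of each comparison, Benjamini-Hochberg over all genes tested, threshold 0.05). Standard errors and intervals of log2 fold changes come from these fits. FPKM used TMM-scaled totals and the union of exons. Likeness of genes is the root mean square distance of centred log2 CPM (prior count 2). The replicates are labelled as biological, and nothing says that they came from separate cultures begun apart, so p-values measure the spread between these libraries.

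The alternatives were DESeq2 1.42.0, its size factors, library size alone, no filter, 10 or more counts in each library, a joint fit of the 9 libraries, a block for the replicate number, offsets for GC content and length (splines with 5 and 4 degrees of freedom), a fold change over 1.3, the longest transcript as length, and leaving out each library. The receptors, gene lists and tests were chosen with earlier results of these data known. Genes named from a list are the largest called rise and fall with at least 1 CPM in a group and the gene highest in CPM, in each comparison, and cell type markers, time point checks, genes sharing exons with a receptor and the 3 nearest genes of receptors above 1 CPM. Stat5b, Nr3c2, Pgr, Cyp19a1 and Fkbp5 were named after their values were seen. Some genes that this rule selects are not reported here. The fits were tested on simulated data, with changes placed only in genes of higher counts than Esr1 and Esr2. That simulation does not show how well changes at the counts of these receptors are recovered. Figures were drawn with matplotlib 3.10.9.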

Additional observations from a re-analysis of the deposited data

How the results depend on the processing

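The 0 receptors called at 24 h against 0 h became 2 with offsets for GC content and length and 1 with these offsets and the replicate block. The 2 called at 48 h against 0 h became 3 with the offsets (Esr2, Nr3c1 and Thra), and 1 with the offsets and the replicate block together (Thra, with Esr1 at an adjusted p of 0.0678 and Esr2 at 0.0677). It was 1, Esr2, with DESeq2, without a filter and with a fold change over 1.3, and 0 with at least 10 counts in every library, where 2 were tested. The 0 at 48 h against 24 h became 1 with the offsets and stayed at 0 with the offsets and the replicate block together. Without 1 library the number was 0 to 1, 0 to 1 and 0 to 0 in the 3 comparisons. Counts over all genes became 2644 and 3503 at 24 h and 48 h against 0 h and 612 at 48 h against 24 h with a fold change over 1.3, and 1043 at 48 h against 24 h in the joint fit of the 9 libraries. Without 1 library they ran from 2607 to 6023 at 24 h against 0 h, from 3471 to 7116 at 48 h against 0 h and from 1857 to 4356 at 48 h against 24 h. The counts of 4494, 5602 and 3732 moved by over 1.5 times without replicate 2 of 0 h (2931), replicates 1, 2 or 3 of 24 h (2610, 2607 and 2806) at 24 h against 0 h, without replicates 1 or 3 of 48 h (3471 and 3624) at 48 h against 0 h, and without replicate 1 of 24 h (2044) or replicates 1 or 3 of 48 h (1857 and 2255) at 48 h against 24 h. Library size as the sole scaling gave a median of 0.12 over all genes at 24 h and 0.13 at 48 h against 0 h, and turned 2002 higher and 2492 lower genes into 2742 and 2060, and 2310 and 3292 into 3045 and 2720. The number of receptors with a mean of at least 1 FPKM stayed at 2 with the other length and with that scaling. The direction turned for Nr1d1 at 48 h against 0 h without replicate 1 of 0 h (-0.06) and without replicate 2 of 48 h (-0.04, with -0.06 to 0.17 over such fits), and for Nr3c1 at 48 h against 24 h without replicate 2 of 48 h (0.01, with -0.10 to 0.01), none of them past the threshold. The cause was not tested.

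The labels number the replicates and do not say whether same-numbered libraries are paired. Same-numbered libraries of different groups correlated at -0.28 to 0.20 in their deviations, with 1 of 9 pairs over 0.1. Differently numbered libraries correlated at -0.39 to 0.38, so this measure cannot decide on a pairing. With the replicate block, 0 receptors passed at 24 h and at 48 h against 0 h and 0 at 48 h against 24 h, with adjusted p of 0.0656 for Esr1 and 0.0766 for Esr2 at 48 h against 0 h, and 3007, 4013 and 2497 genes in all. At 0 to 33 counts per library outside Nr3c1 and Thra, depth limits what can be seen of the other receptors.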
